A study of Mus musculus with 36 samples.

Results

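The genes described here are 34 transcripts of DNA replication and S phase, taken as a list of gene names. They were found among the 51734 gene symbols of a count table of mouse E14 embryonic stem cells (ESC) and of neural precursor cells (NPC) made from them, and all 34 were present and passed the filter on low counts. The genotypes measured at both stages, in groups of 3 libraries, were wild type (WT), MLL3/4 dCD (dCD), in which the histone methyltransferases MLL3 and MLL4 have no catalytic activity, and MLL2 dTAG (MLL2dTAG), in which the related enzyme MLL2 carries a degron. Such a tag lets the compound dTAG-13 send the protein for degradation. Every group carried a label of dTAG-13, WT and ESC included, and the NPC groups also a label of RA. Per the labels, the dose of dTAG-13 was 2 µM at both stages. NPC cultures received it starting on day 1 and were harvested on day 4. How long the ESC were exposed is not stated in the labels. Each genotype is a line of its own, and the sources used here give no number of clones, so the edit and other differences between lines cannot be told apart. The labels do not say whether replicates were separate cultures, so p-values measure only the spread between these libraries, which may be technical.

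Replication starts with licensing. The origin recognition complex (Orc1 and Orc6 among its subunits) with Cdc6 and Cdt1 loads the MCM2-7 helicase onto origins in G1, and geminin (Gmnn) binds Cdt1 and blocks reloading after S phase begins. Mcm10, Cdc45 and the GINS complex activate the helicase, primase and the DNA polymerases copy the strands on the Pcna clamp that replication factor C (Rfc) loads, Fen1 and Lig1 join the pieces, and Rrm1, Rrm2, Tyms and Tk1 supply nucleotides. E2F transcription factors drive most of these genes as cells pass from G1 into S phase. Mouse ESC have a short G1 phase and spend much of the cycle in S phase, and the cycle lengthens as they differentiate.

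Promoter windows from RefSeq (assembly GRCm38.p6), each with 250 bases before and 50 after a start site, were matched to 27 of the 34 genes. The others were Gins1, Gins2, Gins4, Gmnn, Mcm4, Pole and Rfc2. The E2F words searched on both strands were TTTGGCGC, TTTCGCGC, TTTCCCGC and TTTGCCGC, of which TTTGGCGC and TTTCGCGC can overlap on opposite strands. At least 1 of these words was in the windows of 13 of the 27 genes (48.1%), against 4.2% of the genes tested and 2.6% of all 27025 genes with a window. The CCAAT box (CCAAT) was in 63.0% of the replication genes and 42.3% of the genes tested. The 150 bases before the start site of a window are given for 8 genes on which the results below turn. They are 5 with E2F words that were lower in NPC (Mcm6, Mcm5, Orc1, Cdc6, Pola1), the 2 that were higher in NPC (Gins3, Rfc3), and E2f1. The E2f1 window held none of the words. Whether that window covers the main start of E2f1 was not checked, so its promoter is not shown to lack them. Capitals mark E2F words and CCAAT boxes on either strand, and the longest capital run, in Mcm6, holds such an overlapping pair.
Mcm6, chr1:128359706-128359855, minus strand: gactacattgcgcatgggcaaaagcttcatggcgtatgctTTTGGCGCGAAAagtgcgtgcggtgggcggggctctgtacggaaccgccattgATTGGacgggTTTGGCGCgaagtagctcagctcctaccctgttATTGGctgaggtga
Mcm5, chr8:75109359-75109508, plus strand: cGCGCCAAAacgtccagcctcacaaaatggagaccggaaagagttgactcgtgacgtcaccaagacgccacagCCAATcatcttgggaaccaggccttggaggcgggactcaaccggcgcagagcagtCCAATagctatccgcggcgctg
Orc1, chr4:108579304-108579453, plus strand: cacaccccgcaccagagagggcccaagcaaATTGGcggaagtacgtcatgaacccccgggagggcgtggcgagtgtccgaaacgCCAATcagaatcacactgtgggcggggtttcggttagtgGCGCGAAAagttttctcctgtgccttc
Cdc6, chr11:98908001-98908150, plus strand: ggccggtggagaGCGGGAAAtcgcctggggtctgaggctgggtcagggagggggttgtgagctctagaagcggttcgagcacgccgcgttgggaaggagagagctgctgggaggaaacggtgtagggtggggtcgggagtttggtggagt
Pola1, chrX:93632156-93632305, minus strand: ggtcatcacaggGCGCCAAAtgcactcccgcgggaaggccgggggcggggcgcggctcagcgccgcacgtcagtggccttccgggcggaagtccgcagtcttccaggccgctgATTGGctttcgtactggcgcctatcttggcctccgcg
Gins3, chr8:95633409-95633558, plus strand: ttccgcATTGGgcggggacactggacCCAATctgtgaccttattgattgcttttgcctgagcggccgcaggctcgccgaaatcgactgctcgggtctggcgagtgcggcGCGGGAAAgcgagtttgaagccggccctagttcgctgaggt
Rfc3, chr5:151651209-151651358, minus strand: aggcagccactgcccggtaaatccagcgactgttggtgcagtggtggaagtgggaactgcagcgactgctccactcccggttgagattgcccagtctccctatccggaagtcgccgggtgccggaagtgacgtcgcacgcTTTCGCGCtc
E2f1, chr2:154569427-154569576, minus strand: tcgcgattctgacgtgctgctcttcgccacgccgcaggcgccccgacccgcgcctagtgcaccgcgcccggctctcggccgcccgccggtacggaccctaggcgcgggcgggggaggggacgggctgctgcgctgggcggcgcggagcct
A match is a description of the letters, and binding was not measured here. Further E2F words lay outside the printed bases and are counted in the shares above. Some were in the 50 bases after the start, as for Cdt1. Others began before the printed bases, as for Mcm7 at -165 and Mcm5 at -153. The Mcm5 word overlaps the printed one.

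Total counts were 19430860 to 46041277 per library. The biological coefficient of variation was 4.01%, so small changes passed the threshold, and 48.3% to 79.5% of the 20511 genes tested were called in the 5 main comparisons. The mRNA of the edited genes checks nothing about a degron or a lost catalytic activity: Kmt2b (MLL2) was 201 to 214 CPM in ESC MLL2dTAG and 198 to 235 CPM in ESC WT. CPM, the level used throughout, are counts scaled to a common library total after TMM normalization. The 8 ESC markers summed to 3941 to 4376 CPM in ESC WT, 33.4 to 34.7 in NPC WT, 49.3 to 50.5 in NPC dCD and 211 to 214 in NPC MLL2dTAG. The neural markers Nes and Pax6 were 91.2 and 38.9 CPM in NPC WT, while Sox1 was 3.10 and Hes5 0.452 CPM, so some defining neural precursor markers were near absent. The 8 neural precursor markers summed to 124 to 139 CPM in ESC WT, 243 to 262 in NPC WT, 414 to 452 in NPC dCD and 285 to 293 in NPC MLL2dTAG. Against NPC WT, 5 of these 8 were called higher and 0 lower in NPC dCD, and 3 higher and 2 lower in NPC MLL2dTAG, where Nes went to 156 CPM while Pax6 (26.4) and Msi1 (102 to 77.5 CPM) fell. The 8 endoderm markers summed to 675 to 713 CPM in NPC WT, 541 to 575 in NPC dCD and 1952 to 1976 in NPC MLL2dTAG, and the 8 neuron markers to 278 to 285, 416 to 446 and 270 to 285 CPM. In ESC WT the sums were 178 to 205 CPM for endoderm and 387 to 461 CPM for neuron markers, the latter mostly Stmn2 (327 CPM). From ESC WT to NPC WT all 8 endoderm markers were called higher, and of the neuron markers 6 higher and 2 lower. The 8 mesenchyme markers summed to 704 to 722 CPM in NPC WT, 906 to 993 in NPC dCD and 1061 to 1073 in NPC MLL2dTAG. Of these 7 were called higher and 0 lower in NPC dCD, and 5 higher and 3 lower in NPC MLL2dTAG, where Col3a1 went from 295 to 716 CPM, more than the net change of the sum, while Col1a2 (153 to 21.3 CPM), Col1a1 (156 to 99.8 CPM) and Prrx1 (10.3 to 3.50 CPM) fell. In ESC all 8 mesenchyme markers were called higher in both lines than in WT. They summed to 465 to 579 CPM in ESC WT, 742 to 830 in ESC dCD and 842 to 898 in ESC MLL2dTAG. The endoderm sum was 131 to 137 CPM in ESC dCD (0 called higher, 5 lower) and 350 to 367 in ESC MLL2dTAG (3 higher, 1 lower). These differences in culture composition move with the ESC and NPC comparisons, and their part in the replication genes was not tested. In bulk RNA, fewer cells in S phase and less transcript per cell cannot be told apart.

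**Figure D1:**
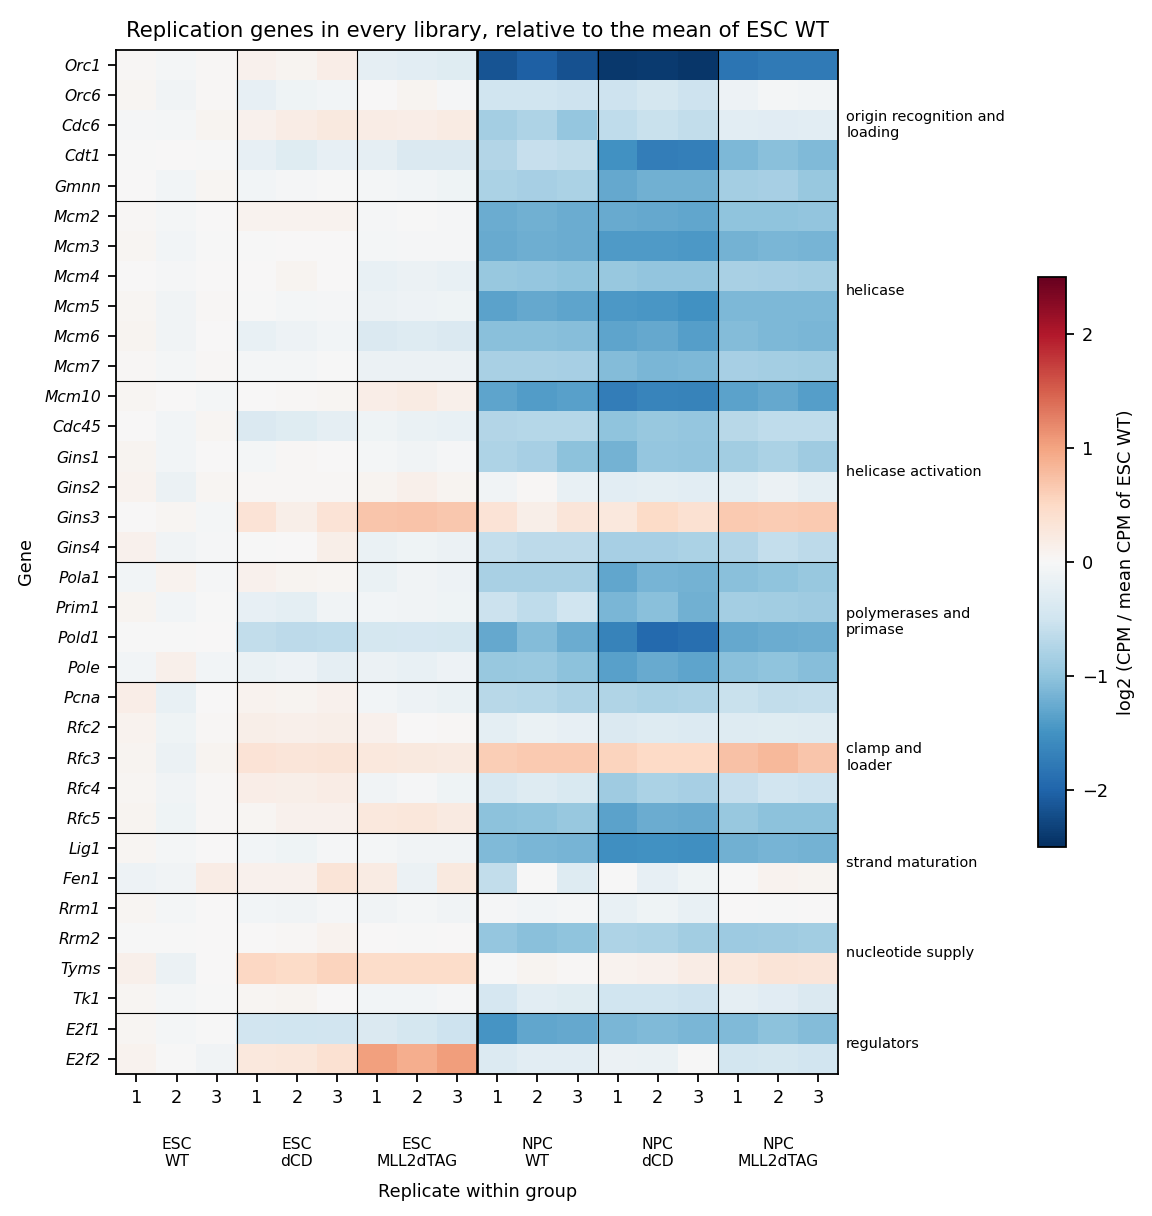
Colour gives log2 of the CPM of each of the 34 genes (rows, by role) in each of the 18 libraries (columns, 3 per group) over the mean of ESC WT. The NPC columns are blue for most rows, while Rfc3 and Gins3 are red, and the ESC MLL2dTAG columns are red for E2f2.

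Replication transcripts were lower in WT NPC than in WT ESC. Of the 34 genes, 28 fell and 2 rose, where 40.4% of all genes tested were called lower and 39.1% higher (79.5% in either direction). The libraries of the 2 groups did not overlap for 2 genes that were higher and 28 that were lower, where 39.6% and 40.1% of all genes tested had no overlap in those directions (79.7% in either). The median log2 change was -0.81, against -0.04 for all genes tested. Of the 7853 genes at least as abundant as the replication genes other than Fen1, 3797 were called lower and 3300 higher (median -0.07). Together the 34 genes held 6658 to 7076 CPM in the ESC WT libraries and 3787 to 3838 CPM in those of NPC WT. The number that fell was 27 to 31 under the other scalings and filters tried.

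Among the licensing genes all 5 fell. Orc1, the ATPase subunit that marks origins, was 120, 113 and 119 CPM in the ESC WT libraries and 26.3, 28.5 and 26.1 CPM in NPC WT. The groups were far apart, and the log2 change of -2.12 (SE 0.05, edgeR adjusted p = 1e-30) was the lowest of the 34. Cdt1 was 156, 157 and 156 CPM in ESC WT and 94.2, 105.5 and 103 CPM in NPC WT, a log2 change of -0.63 (SE 0.05). Its inhibitor Gmnn was 131, 124 and 134 CPM in ESC WT and 74.8, 73.1 and 74.7 CPM in NPC WT, a log2 change of -0.80 (SE 0.04). Neither gene overlapped between the stages. Cdc6 changed by -0.87 and Orc6 by -0.50.

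All 6 helicase subunits fell, with log2 changes from -0.81 (Mcm7) to -1.31 (Mcm5), and their summed level went from 2921 ± 108 CPM (SD, n = 3) in ESC WT to 1366 ± 11.9 CPM in NPC WT. Of the helicase activators, Mcm10 was 230, 224 and 216 CPM in ESC WT and 89.1, 84.3 and 87.6 CPM in NPC WT. Its log2 change of -1.36 (SE 0.04) was followed by Gins1 (-0.87), Cdc45 (-0.72) and Gins4 (-0.62). Within the GINS complex the 4 subunits went apart. Gins3 was 19.9, 20.5 and 19.2 CPM in ESC WT and 25.3, 22.1 and 24.4 CPM in NPC WT, higher in every NPC library, with a log2 change of 0.27 (SE 0.07, edgeR adjusted p = 0.00058). Gins2 was not called (-0.07, SE 0.06); 67.3% of its exonic bases lie opposite Gse1 exons, and the sources used here do not say whether counting used strand.

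The polymerase and primase genes all fell, from Prim1 (-0.56) to the delta subunit Pold1 (-1.20). Of the clamp and its loader, Pcna changed by -0.72, Rfc5 by -0.99, Rfc4 by -0.37 and Rfc2 by -0.20. Rfc3, a small subunit of the same loader, was 50.6, 43.2 and 50.3 CPM in ESC WT and 73.7, 75.9 and 75.6 CPM in NPC WT. It was higher in all NPC WT libraries, with a log2 change of 0.65 (SE 0.05, edgeR adjusted p = 1.6e-14), opposite to Rfc2, Rfc4 and Rfc5. The ligase Lig1 changed by -1.14. Fen1, the flap nuclease, was counted at 2.53 to 4.88 CPM in all 18 libraries and was called in no comparison; 84.2% of its exonic bases lie opposite exons of Tmem258 and Gm10143, so its low value may not describe its transcript.

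Nucleotide supply was split. Rrm2, the ribonucleotide reductase subunit whose level follows S phase, changed by -1.01, whereas its partner Rrm1 was 408 ± 13.8 CPM in ESC WT and 393 ± 6.56 CPM in NPC WT and was not called. Tk1 changed by -0.32. Thymidylate synthase Tyms was 81.3 ± 7.84 and 83.1 ± 2.31 CPM and was not called (0.04, SE 0.05), but fell by 0.28 once GC content and length were modelled as offsets (GC and length offsets). E2f1, an activator of G1/S genes, was 112, 105 and 107 CPM in ESC WT and 38.9, 43.8 and 44.4 CPM in NPC WT, a log2 change of -1.35 (SE 0.05). E2f2, of the same subfamily, was 25.6, 24.2 and 22.9 CPM in ESC WT and 19.1, 20.1 and 20.3 CPM in NPC WT, a log2 change of -0.28 (SE 0.07). Both were lower in every NPC WT library than in every ESC WT library.

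Per kilobase of exon, the highest levels in ESC WT were those of Rrm2 (143 ± 1.70 CPM per kb), Mcm3 (137 ± 5.53) and Mcm6 (126 ± 6.43). The lowest besides Fen1 were E2f2 (4.96 ± 0.28 CPM per kb) and Gins3 (7.33 ± 0.23). Orc1 stood at 33.7 ± 1.16 CPM per kb in ESC WT and 7.75 ± 0.40 in NPC WT, with Cdc6 next among the licensing genes in NPC WT (8.68 ± 0.58).

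**Figure D2:**
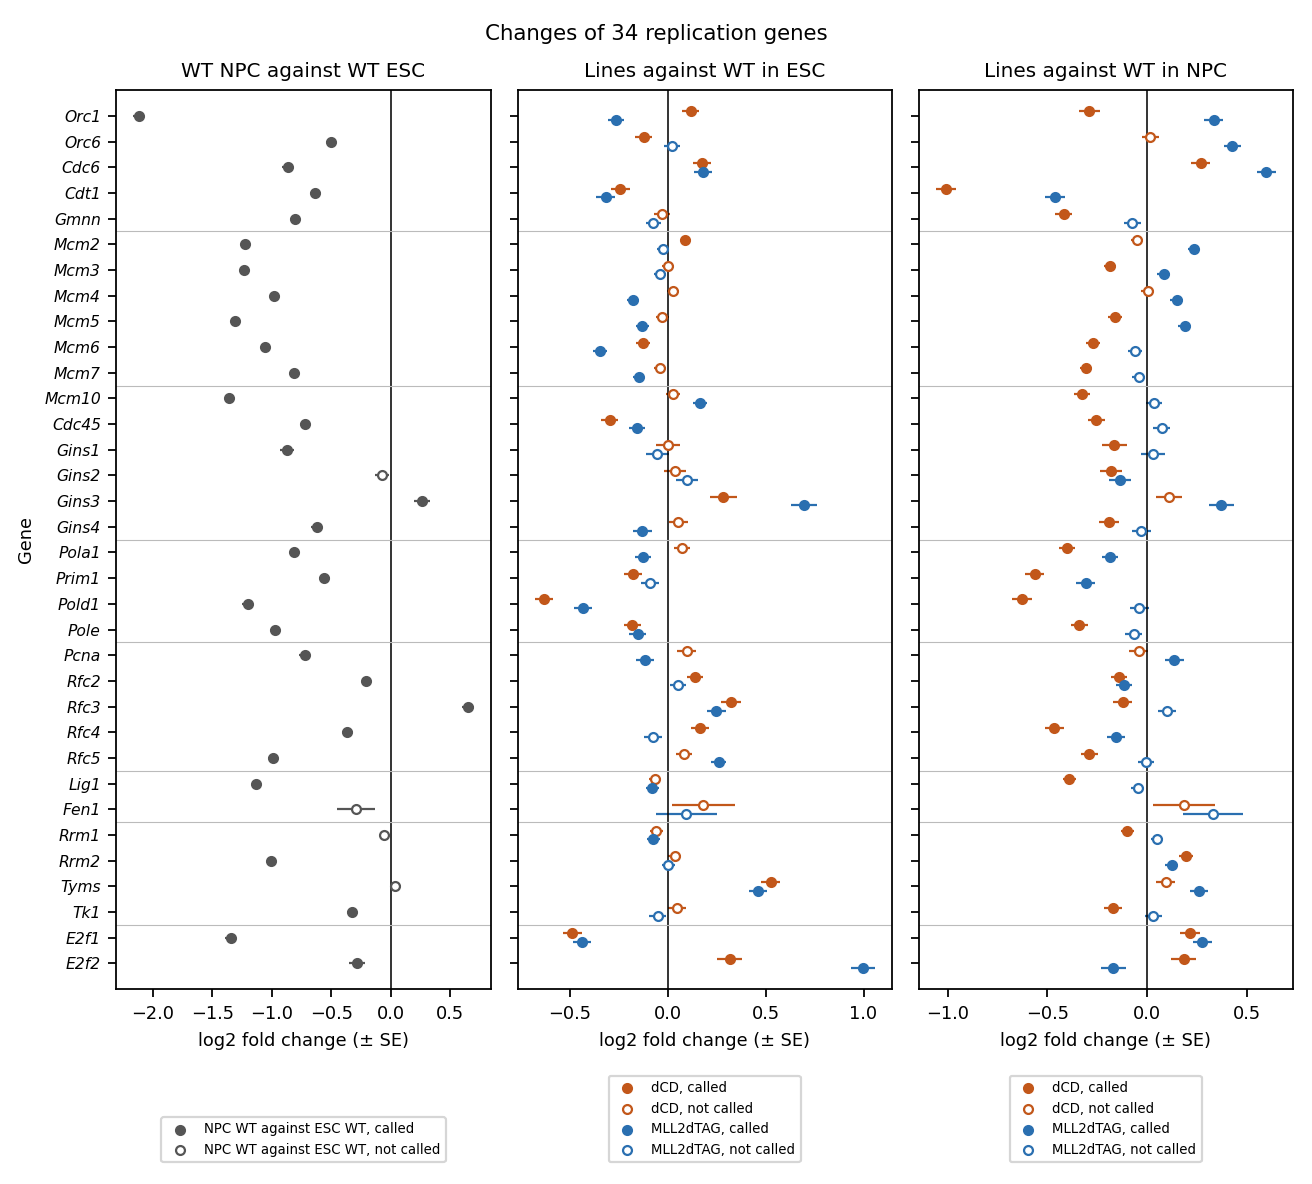
Each point is the log2 change of a gene with its SE, for NPC WT against ESC WT (left), for dCD and MLL2dTAG against WT in ESC (middle) and in NPC (right). Filled points were called at an adjusted p under 0.05. Orc1 lies farthest left at -2.12 in the left panel, E2f2 of MLL2dTAG farthest right at 1.00 in the middle, and Cdt1 of dCD farthest left at -1.01 in the right panel.

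In dCD NPC the replication genes were lower still than in WT NPC. Of the 34, 23 fell and 4 rose, where 26.8% of all genes tested were called lower and 26.7% higher (53.5% in either direction). The libraries of the 2 groups did not overlap for 5 genes that were higher and 23 that were lower, where 29.6% and 30.5% of all genes tested had no overlap in those directions (60.1% in either). The median log2 change was -0.18, against -0.02 for all genes tested. Of the 7853 genes at least as abundant as the replication genes other than Fen1, 2941 were called lower and 2861 higher (median -0.01). The summed level of the 34 genes was 3335 to 3398 CPM in the dCD libraries, below the 3787 to 3838 CPM of WT. Between 20 and 26 genes fell under the other scalings, filters and fits tried on all libraries.

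Cdt1 had the lowest change. It was 54.9, 47.2 and 48.1 CPM in the dCD NPC libraries, against 94.2, 105.5 and 103 CPM in WT, and no library overlapped. The mean of 50.1 ± 4.20 CPM was 50.4% below WT (log2 change -1.01, SE 0.05, edgeR adjusted p = 1.1e-18). Gmnn was 53.3, 56.5 and 56.6 CPM in dCD NPC, also below all WT libraries, a log2 change of -0.42 (SE 0.04). Orc1 changed by -0.29, Orc6 was not called (0.02), and Cdc6 went the other way: it was 53.6, 56.5 and 54.1 CPM in dCD NPC against 45.7, 48.3 and 42.2 CPM in WT, a log2 change of 0.27 (SE 0.05).

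All 4 polymerase and primase genes fell in dCD NPC. Pold1 was 53.5, 44.7 and 46.6 CPM against 70.2, 80.5 and 72.4 CPM in WT (log2 change -0.63, SE 0.05). Prim1, the catalytic primase subunit, was 55.1, 58.9 and 53.0 CPM against 83.5, 77.9 and 85.6 CPM (log2 change -0.56, SE 0.05). Neither overlapped WT. Pola1 changed by -0.40 and Pole by -0.34. Of the helicase, Mcm3, Mcm5, Mcm6 and Mcm7 fell by 0.16 to 0.31 on the log2 scale, whereas Mcm2 (-0.05) and Mcm4 (0.00) were not called. Of the activators Mcm10 (-0.33), Cdc45 (-0.25), Gins4 (-0.19), Gins2 and Gins1 fell and Gins3 (0.11, SE 0.06) was not called. Rfc4 changed by -0.47, Lig1 by -0.39, Rfc5 by -0.29, Tk1 by -0.17, Rfc2 by -0.14 and Rrm1 by -0.10, and Pcna (-0.04) and Tyms (0.09) were not called. Calls of Rfc3 (-0.12), Gins1 (-0.16) and Gins2 (-0.18) were lost when single libraries were left out: Rfc3 was -0.11 without dCD replicate 3 (also lost without WT replicates 2 or 3 or dCD replicate 2), Gins1 -0.10 without dCD replicate 1 (also without WT replicates 1 or 2), and Gins2 -0.12 without WT replicate 2.

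Those higher in dCD NPC besides Cdc6 were Rrm2 and both regulators. Rrm2 was 232, 228 and 217 CPM in dCD NPC against 202, 192 and 197 CPM in WT (log2 change 0.20, SE 0.03). E2f1 was 49.02, 50 and 49.02 CPM against 38.9, 43.8 and 44.4 CPM (log2 change 0.22, SE 0.05). E2f2 was 21.8, 21.6 and 24.1 CPM against 19.1, 20.1 and 20.3 CPM (log2 change 0.18, SE 0.06). The groups did not overlap, but the call of E2f2 was lost without WT replicate 1 (0.16) or dCD replicate 3 (0.13).

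In MLL2dTAG NPC the replication genes split, with 12 higher and 7 lower than in WT NPC, where 33.3% of all genes tested were called higher and 28.4% lower (61.7% in either direction). The libraries of the 2 groups did not overlap for 15 genes that were higher and 9 that were lower, where 36.4% and 31.5% of all genes tested had no overlap in those directions (67.9% in either). The median log2 change was 0.03 for the 34 genes, 0.03 for all genes tested and 0.12 for the 7853 genes at least as abundant as the replication genes other than Fen1. Of those 7853 genes, 4082 were called higher and 2075 lower. The split of the 34 genes depended on the scaling. It was 8 higher and 15 lower with upper-quartile factors, 9 and 10 with no filter, 16 and 4 with GC and length offsets, and 11 and 13 with only these groups in the fit. The 34 genes took 0.383% to 0.390% of all counts in MLL2dTAG NPC and 0.394% to 0.397% in WT NPC, so the sum is slightly lower before scaling and slightly higher after it (3920 to 3965 CPM).

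Cdt1 fell here too. It was 71.3, 75.7 and 72.4 CPM in MLL2dTAG NPC, below all WT libraries, with a log2 change of -0.46 (SE 0.05, edgeR adjusted p = 2.3e-10). Gmnn was 71.5, 73.1 and 66.8 CPM and was not called (-0.07, SE 0.04). Cdc6 was 69.3, 67.7 and 69.4 CPM against 45.7, 48.3 and 42.2 CPM in WT, the highest change among the 34 (0.60, SE 0.05, edgeR adjusted p = 1.4e-13). Orc6 was 96.5, 102 and 100.0 CPM against 74.6, 74.2 and 73.6 CPM (0.43, SE 0.04), and Orc1 changed by 0.33. Thus 3 of the 5 licensing genes rose while Cdt1 fell.

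Prim1 was 67.2, 66.7 and 65.5 CPM in MLL2dTAG NPC, again below all WT libraries (log2 change -0.31, SE 0.05). Pola1 was 90.6, 93.0 and 96.5 CPM against 107, 106 and 106 CPM in WT (-0.19, SE 0.04), and its call was lost with the GC and length offsets (-0.02). Pold1 (-0.04, SE 0.05) and Pole (-0.07, SE 0.04) were not called. Gins3 was 31.1, 30.6 and 31.1 CPM against 25.3, 22.1 and 24.4 CPM (0.37, SE 0.06). Mcm2 changed by 0.23, Mcm5 by 0.19, Mcm4 by 0.15 and Rrm2 by 0.12, and Mcm6 (-0.06) and Mcm7 (-0.04) were not called. Mcm3 (0.08) was -0.01 with upper-quartile factors and lost its call without WT replicates 1 (0.07) or 3 (0.08) or MLL2dTAG replicate 2 (0.07). Rfc4 changed by -0.16. Pcna (0.14; 0.12 and not called without WT replicate 3), Rfc2 (-0.12; -0.10 and not called without WT replicate 2) and Gins2 (-0.13) were called less firmly; Gins2 was not called without WT replicate 1 (-0.14) or 2 (-0.07), or without MLL2dTAG replicate 1 (-0.12) or 3 (-0.12). Mcm10, Cdc45, Gins1, Gins4, Rfc3, Rfc5, Lig1, Rrm1 and Tk1 were not called.

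E2f1 was 50.1, 53.4 and 50.7 CPM (0.28, SE 0.05) and Tyms changed by 0.26. E2f2 was 17.56, 17.95 and 17.32 CPM against 19.1, 20.1 and 20.3 CPM (-0.17, SE 0.06), and its call was lost in 4 of the fits without 1 library (-0.16 without WT replicate 2, -0.15 without WT replicate 3, -0.16 without MLL2dTAG replicate 1 or 3).

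**Figure D3:**
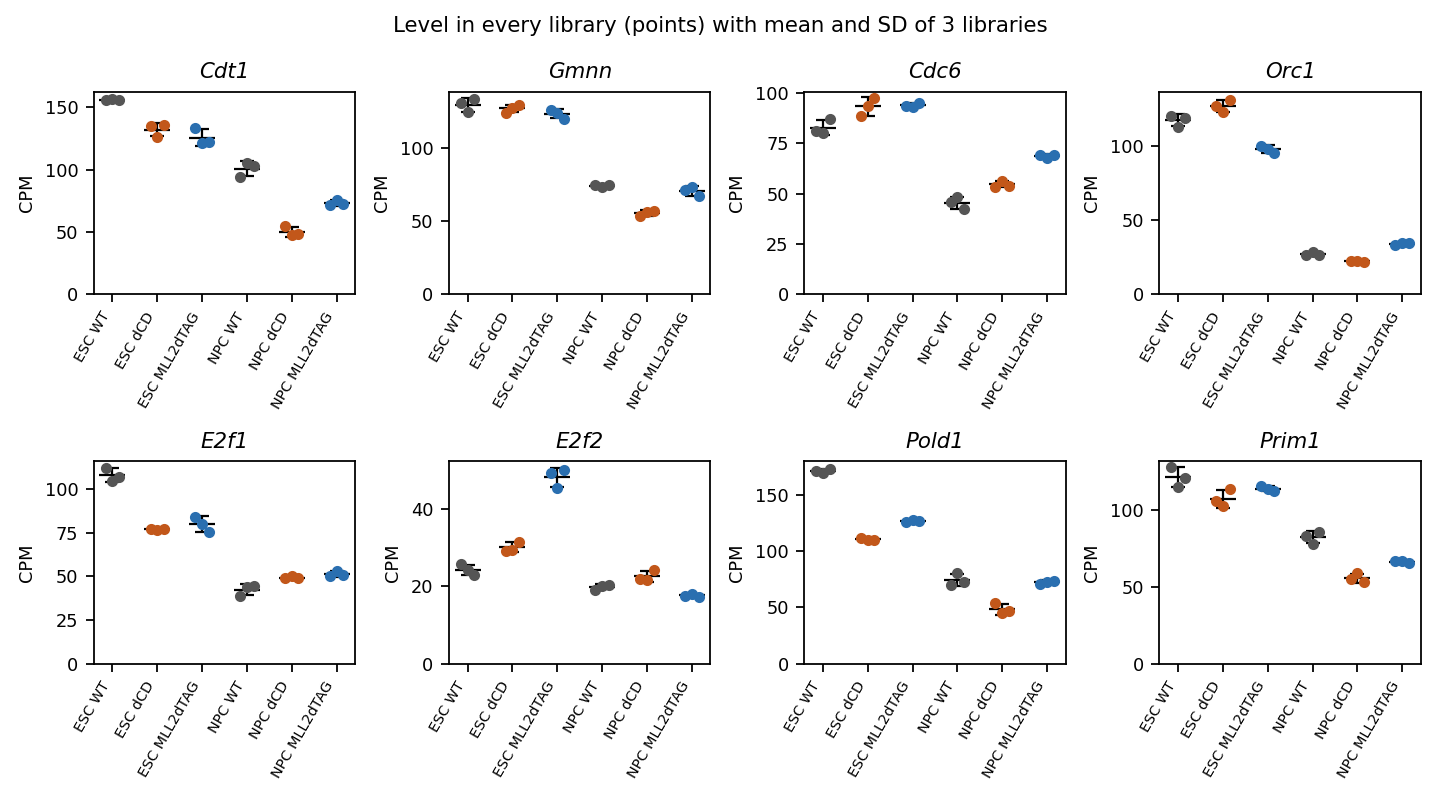
CPM in every library of the 6 groups (points) with the mean and SD of 3 libraries (black; WT grey, dCD orange, MLL2dTAG blue), on axes that start at 0, for Cdt1, Gmnn, Cdc6, Orc1, E2f1, E2f2, Pold1 and Prim1. Cdt1 is lowest in NPC dCD (50.1 CPM), and E2f2 is highest in ESC MLL2dTAG (48.1 CPM).

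In ESC the dCD line showed no shared direction. Of the 34 genes, 9 were higher and 8 lower than in WT, where 25.7% of all genes tested were called higher and 22.6% lower (48.3% in either direction), and the medians were 0.03 and 0.02. The libraries of the 2 groups did not overlap for 9 genes that were higher and 6 that were lower, where 27.1% and 24.8% of all genes tested had no overlap in those directions (51.8% in either). With offsets for GC content and length the split was 3 higher and 14 lower. Pold1 was 112, 110 and 110 CPM in dCD ESC against 171, 170 and 173 CPM in WT, a log2 change of -0.63 (SE 0.05, edgeR adjusted p = 1.9e-13). That is the size of its change in NPC of the same line. E2f1 was 77.2, 77.0 and 77.1 CPM against 112, 105 and 107 CPM (-0.49, SE 0.05), and Cdc45, a part of the active helicase, was 77.3, 79.6 and 83.9 CPM against 99.4, 94.4 and 102 CPM (-0.30, SE 0.04). All 3 lay below every WT library.

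Cdt1 was 135, 126 and 136 CPM in dCD ESC against 156, 157 and 156 CPM (-0.24, SE 0.05), and Gmnn was 124, 128 and 130 CPM and was not called (-0.03, SE 0.04). Tyms was 116, 114 and 120 CPM against 88.8, 73.1 and 82.0 CPM in WT (0.53, SE 0.05). Rfc3 was 60.5, 59.4 and 59.8 CPM against 50.6, 43.2 and 50.3 CPM (0.32, SE 0.05). E2f2 was 29.2, 29.4 and 31.5 CPM against 25.6, 24.2 and 22.9 CPM (0.32, SE 0.06). In each of the last 3 genes every dCD library was above every WT library. Of the helicase, Mcm2 (0.09) and Mcm6 (-0.12) were called, and Mcm3, Mcm4, Mcm5 and Mcm7 were not. Cdc6 (0.17), Rfc4 (0.17), Rfc2 (0.14) and Gins3 (0.29) were also higher and Pole (-0.18) and Prim1 (-0.17) lower. Orc1 (0.12; 0.09 without WT replicate 2 and 0.10 without dCD replicate 3) and Orc6 (-0.12; -0.09 and -0.11 without WT replicates 1 and 3, -0.08 without dCD replicate 1) lost their calls when those libraries were left out.

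In MLL2dTAG ESC, 7 of the 34 genes were higher and 15 lower than in WT, where 28.7% of all genes tested were called higher and 28.2% lower (56.9% in either direction). The libraries of the 2 groups did not overlap for 7 genes that were higher and 13 that were lower, where 30.1% and 29.7% of all genes tested had no overlap in those directions (59.7% in either). The medians were -0.07 for the 34 and -0.00 for all genes. The split was 7 and 21 with upper-quartile factors, 9 and 6 with no filter, and 12 and 8 with GC and length offsets. E2f2 was 49.1, 45.3 and 49.9 CPM in MLL2dTAG ESC against 25.6, 24.2 and 22.9 CPM in WT, 99.4% higher (log2 change 1.00, SE 0.06, edgeR adjusted p = 3.3e-16). E2f1 went the other way, with 84.38, 80.01 and 75.27 CPM against 112, 105 and 107 CPM (-0.44, SE 0.05). The 2 regulators therefore moved apart in this line, with no overlap for either, as they also did in dCD ESC (E2f1 -0.49, E2f2 0.32).

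Gins3 was 32.2, 32.5 and 31.8 CPM against 19.9, 20.5 and 19.2 CPM in WT ESC (0.70, SE 0.07), while Gins1 and Gins2 were not called and Gins4 was -0.13 (SE 0.05; not called without WT replicate 1, -0.08, or MLL2dTAG replicate 1, -0.11). Tyms was 111, 111 and 112 CPM against 88.8, 73.1 and 82.0 CPM (0.46, SE 0.05). Pold1 was 126, 128 and 127 CPM against 171, 170 and 173 CPM (-0.43, SE 0.05), and Mcm6 was 461, 471 and 457 CPM against 615, 556 and 595 CPM (-0.35, SE 0.04). Cdt1 was 133, 122 and 123 CPM (-0.32, SE 0.05) and Gmnn 126, 124 and 120 CPM (not called, -0.07, SE 0.04). Pold1, Mcm6 and Cdt1 were below all WT libraries. Rfc5 (0.26), Rfc3 (0.25), Cdc6 (0.18) and Mcm10 (0.17) were also higher, and Orc1 (-0.26), Mcm4 (-0.18), Cdc45 (-0.15), Pole (-0.15), Mcm7 (-0.15) and Mcm5 (-0.13) lower. Calls of Pola1 (-0.13; -0.08 without WT replicate 2, -0.10 without MLL2dTAG replicate 1), Pcna (-0.12; -0.03 without WT replicate 1, -0.11 without WT replicate 3 or MLL2dTAG replicate 2, -0.10 without MLL2dTAG replicate 3) and Lig1 (-0.08; -0.06 without WT replicate 1, -0.07 without WT replicate 3 or MLL2dTAG replicate 2 or 3) were lost in those fits. Rrm1 (-0.07) was called in none of the fits without WT replicate 1 (-0.05) or 3 (-0.07) or any 1 MLL2dTAG library (-0.06, -0.08 and -0.07).

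The dCD and MLL2dTAG comparisons share the WT libraries, so that a shift in WT moves both, and the 2 lines were also set against each other. In NPC, 28 of the 34 genes were higher in MLL2dTAG than in dCD and 1 was lower, where 31.6% of all genes tested were called higher and 24.3% lower (55.9% in either direction). Without overlap were 29 higher genes and 1 lower, against 35.1% and 27.0% of all genes tested (62.1% in either direction). Of the 7853 genes at least as abundant as the replication genes other than Fen1, 4016 were called higher and 1516 lower (median 0.11). The median of the 34 genes was 0.26 against 0.05 for all genes tested, and 22 to 28 of the 34 were higher under the other scalings and filters. The highest changes were those of Orc1 (33.97 ± 0.85 against 22.1 ± 0.37 CPM, log2 change 0.62, SE 0.05), Pold1 (72.4 ± 1.58 against 48.3 ± 4.63 CPM, 0.59, SE 0.05) and Cdt1 (73.2 ± 2.28 against 50.1 ± 4.20 CPM, 0.55, SE 0.05). E2f2 was the only gene called lower (17.6 ± 0.32 against 22.5 ± 1.42 CPM, -0.35, SE 0.06). In ESC, 7 were higher and 10 lower in MLL2dTAG, with 47.2% of all genes tested called (23.4% higher and 23.7% lower). Without overlap were 8 higher genes and 15 lower, against 27.7% and 27.3% of all genes tested (55.0% in either direction). That split became 4 and 18 with upper-quartile factors and 18 and 1 with GC and length offsets. E2f2 (0.68, SE 0.06) and Gins3 (0.41, SE 0.06) were higher in MLL2dTAG ESC and Orc1 (-0.38, SE 0.04) was lower, as were Rfc4 (-0.24) and Mcm6 (-0.22), while Pold1 was higher (0.20). With the GC and length offsets Rfc4 turned to 0.13 and Mcm6 was -0.04.

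Whether a line's difference from WT changed between the stages was tested as an interaction, the log2 change in NPC minus that in ESC. For dCD it was below 0 for 21 genes and above 0 for 2, where 22.9% of all genes tested were called below and 20.0% above (42.9% in either direction). The lowest was Cdt1 (-0.77, SE 0.07), followed by Rfc4 (-0.63, SE 0.07), Pola1 (-0.47, SE 0.06) and Rfc3 (-0.45, SE 0.07). E2f1 was the highest (0.70, SE 0.07). Pold1 was at 0.01 (SE 0.07), not called, and was -0.63 in both stages. For MLL2dTAG the interaction was above 0 for 15 genes and below for 8, where 26.4% of all genes tested were called above and 22.6% below (49.0% in either direction). The split was 11 and 10 with upper-quartile factors, 10 and 12 with no filter, and 10 and 11 with GC and length offsets. All 6 helicase subunits were above 0, from 0.10 (Mcm7) to 0.32 (Mcm4). The call of Mcm7 was lost with DESeq2, upper-quartile factors (0.07), no filter, the offsets and in 9 of the 12 fits without 1 library (0.09 to 0.11; called only without ESC WT replicate 2, ESC MLL2dTAG replicate 3 or NPC MLL2dTAG replicate 3), and that of Mcm3 (0.12) with upper-quartile factors, no filter, the offsets (0.07) and without ESC WT replicate 1 (0.09), NPC WT replicate 1 (0.11) or NPC MLL2dTAG replicate 2 (0.11). E2f1 (0.71, SE 0.07) and Orc1 (0.60, SE 0.06) were the highest and E2f2 (-1.16, SE 0.09) the lowest. E2f1 was thus below WT in ESC and above WT in NPC in both lines, and E2f2 above WT in MLL2dTAG ESC (1.00) and at -0.17 in MLL2dTAG NPC. In dCD, E2f2 was above WT in ESC (0.32) and in NPC (0.18).

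The balance of the loader Cdt1 and its inhibitor Gmnn does not depend on library scaling, since both come from the same library. Log2 of Cdt1 over Gmnn counts was 0.26, 0.34 and 0.22 in the ESC WT libraries and 0.33, 0.53 and 0.46 in NPC WT. It was 0.12, -0.02 and 0.07 in ESC dCD and 0.08, -0.03 and 0.03 in ESC MLL2dTAG. In NPC it was 0.04, -0.26 and -0.23 in dCD and -0.00, 0.05 and 0.12 in MLL2dTAG. In each of the 4 comparisons of a line with WT, every library of the line was below every WT library. In ESC the difference from WT was -0.22 for dCD and -0.24 for MLL2dTAG, and in NPC -0.59 and -0.39. The exact two-sided permutation test gave p = 0.1 in each, the smallest that 3 against 3 libraries allow, and 0.175 after Benjamini-Hochberg adjustment over 7 comparisons. NPC WT against ESC WT (0.17, exact permutation p = 0.2) and the 2 lines against each other (ESC -0.03, exact permutation p = 0.7; NPC 0.21, exact permutation p = 0.2) had overlapping libraries.

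Other genes of the replication machinery were read from a list of 44 that are not among the 34. In WT NPC against WT ESC, 37 of the 44 fell and 4 rose (93.2% called, against 79.5% of all genes tested), with Orc2, another origin recognition subunit, at -1.47 and Pole3, an accessory polymerase epsilon subunit, at 1.36. In dCD NPC 24 fell and 5 rose (65.9% called against 53.5%; median -0.17), with Ticrr, which helps Cdc45 join the helicase, at -0.66 and Orc2 at 0.47. In MLL2dTAG NPC 19 rose and 10 fell (65.9% called, near the 61.7% of all genes; median 0.07), with Orc2 at 0.72 and Pole3 at -1.02. MLL2dTAG against dCD NPC gave 36 higher and 3 lower (88.6% called against 55.9%). In dCD ESC 8 were higher and 15 lower, a share of 52.3% that is near the 48.3% of all genes. In MLL2dTAG ESC 12 were higher and 21 lower (75.0% against 56.9%). More were called among the 7853 genes at least as abundant as the replication genes other than Fen1. Their share was 90.4% in WT NPC against WT ESC, 73.9% in dCD NPC and 78.4% in MLL2dTAG NPC. It was 70.4% for MLL2dTAG against dCD NPC, 67.2% in dCD ESC and 73.4% in MLL2dTAG ESC. The 44 were below it in dCD NPC, MLL2dTAG NPC and dCD ESC, and above it elsewhere. The S-phase kinase Cdc7 was lower in both ESC lines (-0.68 and -0.80). Of 16 E2F, DP, pocket protein and MuvB genes, 8 rose and 8 fell in WT NPC (100.0% called against 79.5%). Mybl2, the MuvB partner that is active from S phase on, went from 577 ± 8.68 to 36.4 ± 0.68 CPM (log2 change -3.98, SE 0.04). In dCD NPC 6 of the 16 fell and 1 rose, a share of 43.8% that is below the 53.5% of all genes, with the dimerisation partner Tfdp2 at -1.08 (SE 0.03). In MLL2dTAG NPC 7 rose and 4 fell (68.8%, near the 61.7% of all genes), with Mybl2 at 0.80 (SE 0.04). Of 14 checkpoint and repair genes 11 fell and 1 rose in WT NPC (85.7% called against 79.5% of all genes), 8 fell and 1 rose in dCD NPC (64.3% against 53.5%), and 6 rose and 3 fell in MLL2dTAG NPC (64.3% against 61.7%). The checkpoint and repair shares, which count either direction, are below those of the genes at least as abundant as the replication genes. By direction, 40.4% of all genes tested were called lower in WT NPC and 26.8% in dCD NPC. In MLL2dTAG NPC 33.3% were called higher.

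Genes of mitosis, expressed later in the cycle, were lower in the NPC of both lines, and in the ESC of both more were lower than higher. In dCD NPC all 26 fell against WT (26.8% of all genes tested fell; median -0.52), from Anln (-0.15) to the kinetochore protein Cenpf (-0.88). In MLL2dTAG NPC 24 fell and 1 rose (28.4% of all genes fell; median -0.37): cyclin Ccnb2 changed by -0.89 and the kinase Cdk1 by 0.17. In WT NPC against WT ESC 22 fell and 1 rose (40.4% of all genes fell; median -0.47). The 2 NPC counts of lower genes were 26 in each setting for dCD and 22 to 24 for MLL2dTAG over the other scalings and filters. In ESC 12 were lower and 6 higher in dCD (22.6% of all genes lower, median -0.09). For MLL2dTAG ESC it was 18 lower and 2 higher (28.2% of all genes lower, median -0.17). With GC and length offsets these were 17 and 3 in dCD, and 12 and 5 in MLL2dTAG. The summed mitotic level was 6838 to 6939 CPM in NPC WT, 4643 to 4932 in NPC dCD and 5158 to 5206 in NPC MLL2dTAG. It was 8946 to 9285 CPM in ESC WT, 8310 to 8376 in ESC dCD and 7784 to 7839 in ESC MLL2dTAG. The ratio of the replication sum to the mitotic sum, in which library scaling cancels, was 0.724 to 0.776 in ESC WT and 0.549 to 0.561 in NPC WT. It was 0.689 to 0.724 in NPC dCD and 0.753 to 0.769 in NPC MLL2dTAG, above every NPC WT library, and 0.810 to 0.836 in the ESC of both lines, above every ESC WT library.

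**Figure D4:**
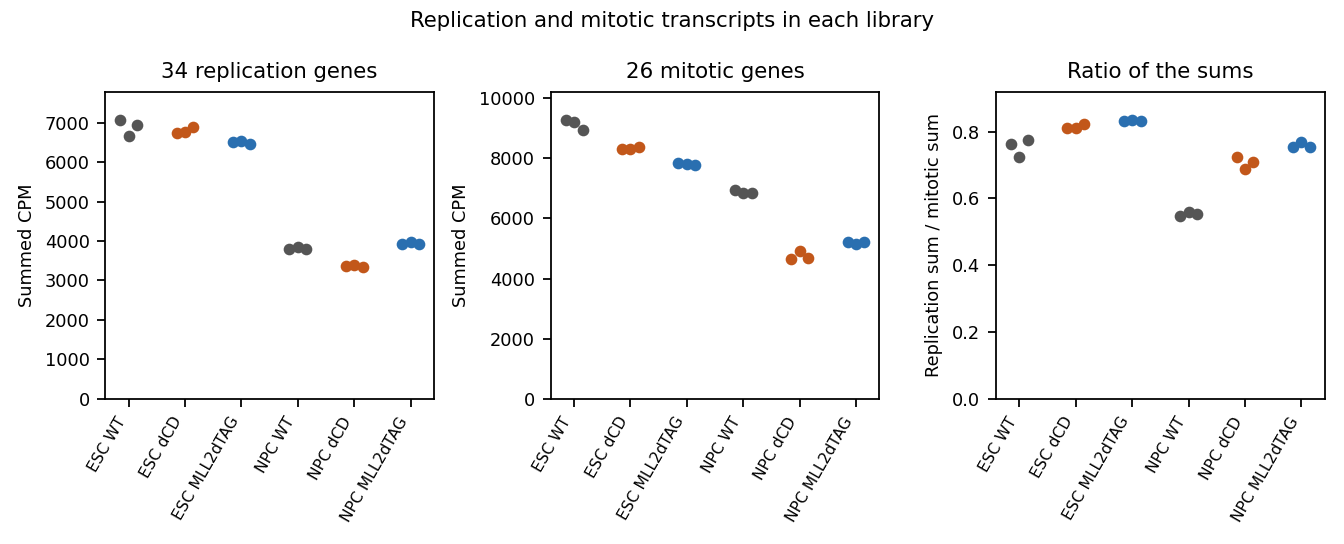
Points are libraries: the summed CPM of the 34 replication genes (left), of 26 mitotic genes (middle) and the ratio of the sums (right), on axes that start at 0. The ratio is lowest in NPC WT, at 0.549 to 0.561.

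The promoter matches were set beside the changes as a description. In WT NPC against WT ESC the 13 genes with an E2F word had a median log2 change of -0.87 (range -2.12 to 0.65; 11 lower and 2 higher) and the 14 without one a median of -0.64 (range -1.36 to 0.04; 11 lower). The 2 genes that rose, Rfc3 and Gins3, both had an E2F word, as the sequences above show. In dCD NPC the medians were -0.27 with a word (10 of 13 lower) and -0.08 without (7 of 14 lower), and in MLL2dTAG NPC -0.04 and 0.10. E2f1 fell in WT NPC and is counted among those without a word by its window, which was not checked against its main start. E2f2 held 1 word, after the start. The cell cycle homology region (CHR), searched as TTTGAA and TTCGAA on both strands, was in 25.9% of the replication genes, 78.3% of the mitotic genes and 16.4% of the genes tested. E2F words were in 4.3% of the mitotic genes and 25.0% of the other replication genes.

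**Figure D5:**
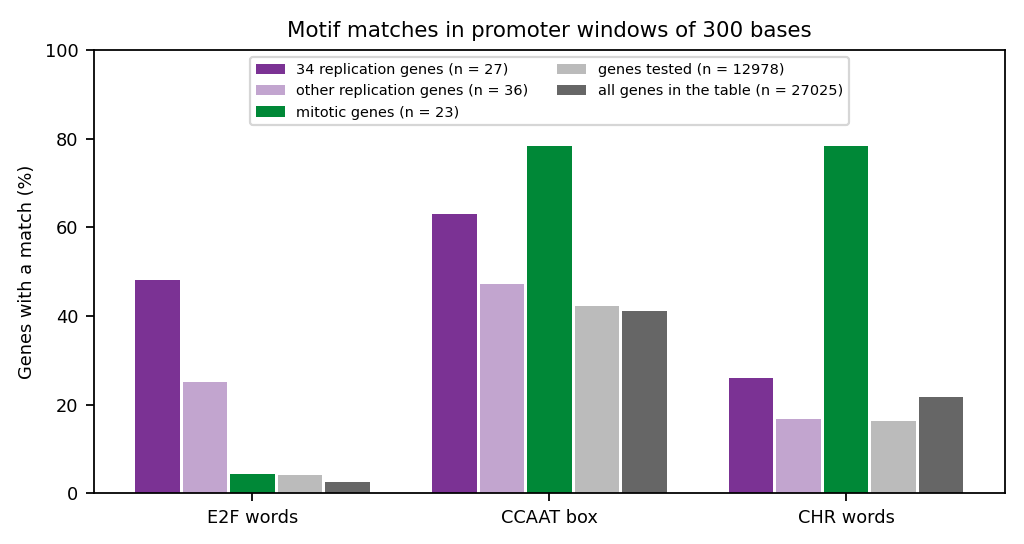
Bars give the percent of genes with a match in a promoter window of 300 bases, for the 34 replication genes (27 with a window), the other replication genes, the mitotic genes, the genes tested and all genes. E2F words reach 48.1% in the replication genes and 4.3% in the mitotic genes, and CHR words 25.9% and 78.3%.

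Across the 18 libraries most of the 34 genes ran in parallel, as a description of points that share stage, line and scaling. The median correlation of log2 CPM with the other 33 genes was 0.965 for Orc1, whose nearest gene was Mcm5 (r = 0.997), and 0.947 for Mcm10. For Cdt1 it was 0.867, with Prim1 the nearest (r = 0.968). Rfc3 ran opposite to the rest (-0.792), and Gins3 was not parallel to them (-0.213, nearest Tyms at r = 0.556). By position, 6 of the 34 lie on chromosome 8 (Orc6, Cdt1, Mcm5, Gins2, Gins3, Gins4), where the median log2 change of 576 genes at 10 CPM or more was -0.04 and 0.02 in ESC of dCD and MLL2dTAG, and -0.05 and 0.07 in NPC, against 0.02, 0.05, -0.01 and 0.10 for such genes on all chromosomes.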

How the data were processed

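mRNA of 18 libraries (6 groups of 3, of 36 samples in the series) was analysed. Values deposited by the authors are raw counts of reads for each gene symbol, not normalized; HTSeq is named in the submitters' processing notes, the libraries were made with a stranded mRNA kit per the labels, and the aligner, genome build and strand setting are not given in the sources used here. Columns were assigned by name. The other 6 columns of the table carry names that each occur more than once and were not used, so dCD combined with MLL2dTAG and the first set of samples were not analysed here.

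Counts were filtered with filterByExpr (20511 genes kept) and fitted with edgeR 4.0.16 (R 4.3.3, limma 3.58.1): scaling was by TMM (0.967 to 1.05), and the quasi-likelihood fit had a coefficient for each of the 6 groups over all 18 libraries (12 residual degrees of freedom), two-sided F tests and Benjamini-Hochberg adjustment over all genes, called at an adjusted p under 0.05. Positive changes are higher in the first-named group. An SE is the change divided by the square root of its F. CPM are given with SD of 3 libraries. Exact permutation tests were used for the ratio of Cdt1 to Gmnn. The script was tested on simulated data.

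The replication genes and all lists were chosen with earlier results of these data known. By the naming rule all 34 genes are accounted for by role, with library values for Cdt1, Gmnn, E2f1, E2f2 and the 3 highest and 3 lowest called per comparison of a line with WT or of the stages; of other lists at most 2 genes each way with a mean of 5 CPM or more are named. Cdc7, lower in both ESC lines, is named under the same rule. Alternatives were DESeq2 1.42.0 and its size factors, upper-quartile factors, no filter, halved counts (low counts were even in 60.8% to 66.5% of cases), offsets for GC content and length, a replicate block, only the groups compared, and each library left out. The chromosome medians, the abundance background and the ratio of sums were chosen after the data were seen. Reads are not independent molecules, so counting precision is a lower limit on the error. Copies Pcna-ps1, Pcna-ps2 and Tyms-ps could share reads with Pcna and Tyms.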

Additional observations from a re-analysis of the deposited data

Results flagged for a closer look

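For 14 results the difference between a line and WT was not the same in NPC as in ESC, by the interaction test of the edgeR fit (log2 change in NPC minus that in ESC, 3 libraries per group). In dCD, the interaction was 0.70 for E2f1 (SE 0.07, adjusted p = 1.2e-10) and 0.16 for Rrm2 (SE 0.05, adjusted p = 0.0049). It was -0.45 for Rfc3, -0.47 for Pola1, -0.63 for Rfc4 and -0.77 for Cdt1 (SE 0.07, adjusted p = 2.2e-11). In MLL2dTAG it was 0.71 for E2f1 (SE 0.07, adjusted p = 3.7e-11), 0.60 for Orc1, 0.42 for Cdc6 and 0.41 for Orc6. It was -0.23 for Gins2, -0.27 for Rfc5, -0.32 for Gins3 and -1.16 for E2f2 (SE 0.09, adjusted p = 1.8e-13). The value for Gins2 was no longer called without ESC WT replicate 2 (-0.16) or NPC WT replicate 2 (-0.18). Since the WT libraries enter both lines, the E2f1 values of the 2 lines are not independent of each other.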

How the results depend on the processing

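The counts of called replication genes stayed within 1.5 times of those reported in all 9 tests under every setting tried; their directions did not, as given beside the results. The direction of a called change turned for single genes in 24 cases, 23 of them with GC and length offsets. These gave, in ESC dCD against WT, Orc1 -0.025, Mcm4 -0.125, Gins1 -0.156, Rfc4 -0.019, Rrm2 -0.125; in ESC MLL2dTAG against WT, Pola1 0.040, Pcna 0.055, Rfc4 0.109, Rrm1 0.070; in NPC dCD, Mcm4 -0.082; in NPC MLL2dTAG, Pold1 0.110; in WT NPC against ESC, Tyms -0.284; and in ESC MLL2dTAG against dCD, Gmnn 0.192, Mcm4 0.067, Gins1 0.245, Gins4 0.024, Pola1 0.077, Pcna 0.131, Rfc3 0.239, Rfc4 0.129, Rrm1 0.229, Rrm2 0.282, Tyms 0.118. The last was Mcm3 in NPC MLL2dTAG with upper-quartile factors (-0.008). These offsets moved the median of all genes to 0.10 in ESC MLL2dTAG and upper-quartile factors moved it to -0.12 in WT NPC; the cause was not tested. A further 186 single-gene calls were lost and 120 gained, of 4692 recomputed. A change of sign between values called under neither setting was not counted as a turn. In an alternative chosen after the data were seen, the Cdt1 to Gmnn difference between the ESC lines ranged from -0.066 to 0.002 when libraries were left out.

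Replicate numbers occur in every group. Deviations of same-numbered libraries from their group means had correlations of -0.28 to 0.125 over 45 pairs. Differently numbered pairs were not set beside them, so these values cannot tell whether a number stands for a shared batch. A replicate block gave 17, 21, 27 and 19 called genes in ESC dCD, ESC MLL2dTAG, NPC dCD and NPC MLL2dTAG against 17, 22, 27 and 19 without it. Fen1, at under 5 CPM in every library, had the widest errors of the 34 genes (SE 0.15 to 0.16 in the comparisons of groups), and the cause of its low value was not tested.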
